A study of Mus musculus with 9 samples.

Results

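The mouse zinc finger genes named Zfp800 to Zfp999 were followed in LSK cells, the bone marrow fraction without lineage markers but with Sca1 and cKit, which contains blood stem and progenitor cells. The rule for members used the symbol alone, a Zfp number in that range with or without a letter, and no measured value. It was chosen with earlier results of these data known. Of the 37882 genes in the expression table, 65 were members, and the 294 other genes with a Zfp number served as the closest comparison. RNA sequencing had been done on 9 mice, 3 in each of 3 groups, with a library for every mouse. The rtTA group carried only rtTA, the doxycycline-controlled activator, in the Rosa26 locus. K9M mice had, besides rtTA, a histone H3.3 in the Col1a1 locus whose lysine 9 is a methionine, and K36M mice had the same change at lysine 36. Mice of all groups were on a mixed B6/129 background, were 6 to 8 weeks old and drank water with 2 mg/ml doxycycline and 10 mg/ml sucrose. The labels list no group with an unmutated H3.3 transgene, so mutation and added histone cannot be told apart, and the transgene's promoter is not given in the sources used here.

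Most genes of this number range encode C2H2 zinc finger proteins, in which a row of fingers reads DNA, and many begin with a KRAB box. The KRAB box binds TRIM28, which brings in the methyltransferase SETDB1 and HP1 proteins and so places methyl groups on lysine 9 of histone H3, above all at retroelements. KRAB zinc finger genes arose by local duplication, lie in clusters, and their finger-coding exons are themselves known to carry this mark in several cell types. A histone with methionine at lysine 9 or 36 lowers methylation of that lysine on the other histones of the cell.

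A KRAB-box pattern was found in the translated transcripts of 52 members and in none of 12 others (Zfp800, Zfp804a, Zfp804b, Zfp821, Zfp827, Zfp830, Zfp831, Zfp839, Zfp853, Zfp865, Zfp956 and Zfp957). Zfp939 is annotated as a pseudogene without a coding sequence. The share with the pattern was 81.2% of coding members and 40.4% of the other coding Zfp genes (116 of 287). Members with the pattern had 0 to 22 C2H2 fingers with a median of 11, and those without it had 0 to 20 with a median of 2. The 65 genes lay on 13 chromosomes, with 16 on chromosome 17, 11 on chromosome 8, 8 on chromosome 7 and 7 on chromosome 13. Within 500 kb of another member lay 35 of them, in 9 clusters.

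Promoters of 59 members were found in the RefSeq table for GRCm38.p6, as windows of 300 bases from 250 before to 50 after the start. KRAB members had a median of 9.5 CG dinucleotides in the window and the 10 matched members without the pattern had 22.5, against 7 over all 32851 promoters of the table. At least 10 CG were held by 24 of 48 KRAB members (50%), 9 of 10 others (90%) and 43.5% of all promoters, and at least 1 by 94.6% of all promoters. The same count of at least 10 CG was found in 28 of 49 members that passed the expression filter (57.1%) and 5 of 10 that did not (50%). The windows below, chosen after values were seen, pair a CG-rich and a CG-poor window among expressed members (Zfp825 with 14 CG and a mean of 26.1 RPKM, Zfp868 with 6 CG and 7.22 RPKM) and among members near 0 (Zfp819 with 20 CG and 0.0247 RPKM, Zfp811 with 5 CG and 0.0816 RPKM). RPKM is a read count divided by transcript length and library size. The Zfp955a window, with 8 CG, has 0 differences from that of Zfp955b, its near-identical neighbour. Capitals mark CG, the site of DNA methylation, which reads the same on both strands. The Zfp868 window is 1 of 2 listed for that gene.
Zfp825, chr13:74493912-74494211, minus strand: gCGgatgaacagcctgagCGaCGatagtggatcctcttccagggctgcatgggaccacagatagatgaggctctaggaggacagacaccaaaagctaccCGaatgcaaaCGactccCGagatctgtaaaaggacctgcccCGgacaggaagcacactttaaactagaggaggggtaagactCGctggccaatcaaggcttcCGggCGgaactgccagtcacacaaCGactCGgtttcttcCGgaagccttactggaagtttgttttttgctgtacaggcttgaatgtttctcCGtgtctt
Zfp868, chr8:69625499-69625798, minus strand: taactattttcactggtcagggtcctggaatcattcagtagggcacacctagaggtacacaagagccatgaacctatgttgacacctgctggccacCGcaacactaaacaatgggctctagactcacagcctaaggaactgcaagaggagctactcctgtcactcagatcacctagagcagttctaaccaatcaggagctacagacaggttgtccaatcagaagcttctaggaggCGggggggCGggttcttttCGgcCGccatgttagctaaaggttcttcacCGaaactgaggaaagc
Zfp819, chr7:43606919-43607218, plus strand: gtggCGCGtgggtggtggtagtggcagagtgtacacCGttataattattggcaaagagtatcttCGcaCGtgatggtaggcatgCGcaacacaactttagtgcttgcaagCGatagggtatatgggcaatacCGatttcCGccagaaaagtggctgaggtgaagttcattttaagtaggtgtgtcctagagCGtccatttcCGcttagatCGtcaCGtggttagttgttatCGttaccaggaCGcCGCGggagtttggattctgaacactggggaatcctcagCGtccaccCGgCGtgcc
Zfp811, chr17:32809882-32810181, minus strand: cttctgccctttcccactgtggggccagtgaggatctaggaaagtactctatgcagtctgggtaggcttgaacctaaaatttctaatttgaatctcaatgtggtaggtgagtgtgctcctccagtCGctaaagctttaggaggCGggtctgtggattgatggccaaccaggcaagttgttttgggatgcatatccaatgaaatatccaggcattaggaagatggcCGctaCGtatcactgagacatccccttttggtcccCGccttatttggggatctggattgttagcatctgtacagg
Zfp955a, chr17:33255096-33255395, minus strand: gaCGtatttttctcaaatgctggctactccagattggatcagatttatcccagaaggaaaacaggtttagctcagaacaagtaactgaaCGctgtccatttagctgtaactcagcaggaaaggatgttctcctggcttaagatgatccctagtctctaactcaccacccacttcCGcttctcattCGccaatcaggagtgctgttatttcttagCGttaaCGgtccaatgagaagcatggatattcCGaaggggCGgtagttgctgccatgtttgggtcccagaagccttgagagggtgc

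**Figure D1:**
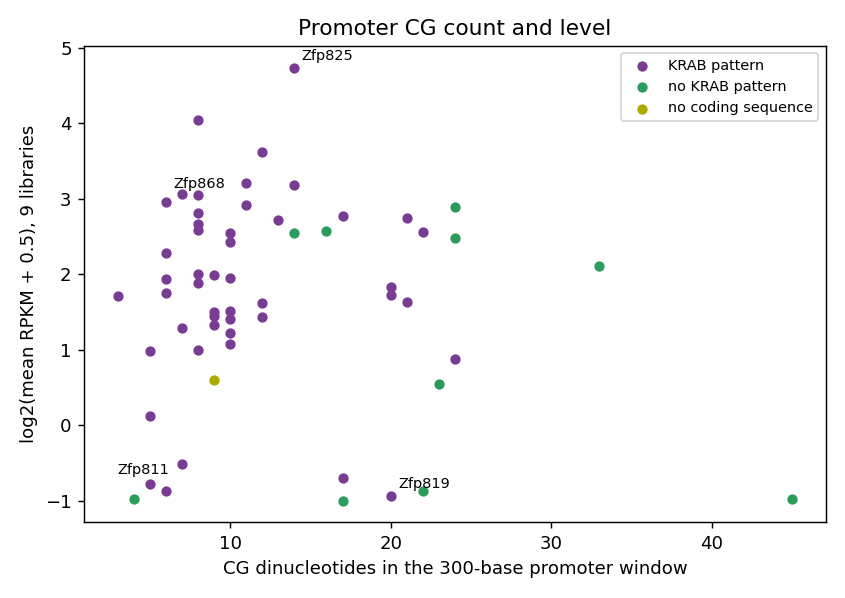
Number of CG dinucleotides in the 300-base promoter window (x axis) against log2 of the mean RPKM over 9 libraries plus 0.5 (y axis) for the 59 members with a promoter. Points are coloured by KRAB pattern; Zfp825 and Zfp868 sit high and Zfp819 and Zfp811 low, with 14, 6, 20 and 5 CG in turn.

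These genes were broadly transcribed at low levels in LSK cells, counted over the 9 libraries of all groups. Of the 65 members, 55 (84.6%) passed the expression filter of at least 1 RPKM in at least 3 libraries, beside 235 of 294 other Zfp genes (79.9%), 52.3% of 21316 protein-coding genes and 34.1% of all genes. The median mean level was 3.48 RPKM over the 55 members, 4.39 over the other Zfp genes tested and 8.49 over all 12926 genes tested. Only 4 members exceeded 10 RPKM, 19 lay between 5 and 10, 31 between 1 and 5, and 11 under 1. A level of at least 1 RPKM was reached in all 9 libraries by 50 members, and none reached it in a single group alone. Zfp827 passed through 4 libraries, rtTA replicates 2 and 3 and K9M replicates 2 and 3, and reached 1 RPKM in no K36M library.

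The highest member was Zfp825 (ENSMUSG00000069208, chr13:74480054-74493992), a KRAB gene with 6 fingers, at 29.3, 27.2 and 24.8 RPKM in the rtTA mice, 25.5, 26.8 and 29 in the K9M mice and 21.7, 26.3 and 24.3 in the K36M mice. Its groups overlapped, and near-identical sequence in other genes covered 22.4% of its transcript. Zfp869, the next highest, stood at 16.7, 18 and 20.5 RPKM in the rtTA mice, 13.6, 13.3 and 14.4 in the K9M mice and 13.5, 16.1 and 17.6 in the K36M mice. All 3 K9M values lay below all 3 rtTA values.

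Zfp958 measured 9.69, 13.2 and 13.2 RPKM in the rtTA mice, 10.6, 9.41 and 9.81 in the K9M mice and 11.6, 14.2 and 14.3 in the K36M mice. Its K36M values lay above its K9M values. The highest member without the KRAB pattern was Zfp865, which has 20 fingers, at 7.72, 12.7 and 11.5 RPKM in the rtTA mice, 8.97, 10.5 and 11.4 in the K9M mice and 8.39, 11 and 11 in the K36M mice. Its groups overlapped throughout.

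Zfp954, a KRAB gene with 8 fingers, measured 10.9, 7.97 and 9.16 RPKM in the rtTA mice, 8.89, 8.25 and 7.07 in the K9M mice and 8.89, 8.87 and 8.94 in the K36M mice. Zfp930, with 12 fingers, measured 6.7, 10.5 and 10 RPKM in the rtTA mice, 7.97, 6.83 and 8.96 in the K9M mice and 9.96, 8.71 and 9.18 in the K36M mice. The levels of this pair differed by less than their spread between libraries, and groups overlapped for both.

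At the low end, the members with the lowest means that passed the filter were Zfp939 and Zfp827. Zfp939 measured 1.05, 0.954 and 0.72 RPKM in the rtTA mice, 1.29, 0.974 and 1.07 in the K9M mice and 0.643, 1.19 and 1.27 in the K36M mice. Zfp827 measured 0.907, 1.21 and 1.18 RPKM in the rtTA mice, 0.93, 1.49 and 1.23 in the K9M mice and 0.338, 0.847 and 0.483 in the K36M mice. Its 3 K36M values were the lowest, while the groups of Zfp939 overlapped. Just outside the filter, Zfp941 measured 0.422, 0.47 and 0.67 RPKM in the rtTA mice, 0.672, 0.488 and 0.708 in the K9M mice and 0.557, 0.764 and 0.573 in the K36M mice. Zfp879 measured 0.166, 0.313 and 0.212 RPKM in the rtTA mice, 0.226, 0.155 and 0.116 in the K9M mice and 0.103, 0.262 and 0.278 in the K36M mice. No value of this pair reached 1 RPKM, and groups overlapped for both. The other 8 untested members (Zfp804a, Zfp804b, Zfp811, Zfp819, Zfp853, Zfp872, Zfp936 and Zfp957) had means of 0.00112 to 0.119 RPKM. Of these, 7 were listed at 0 in at least 1 library and none in all 9. The group without a KRAB pattern passed the filter less often by count (8 of 12, 66.7%) than the KRAB members (46 of 52, 88.5%), a difference that was not tested.

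**Figure D2:**
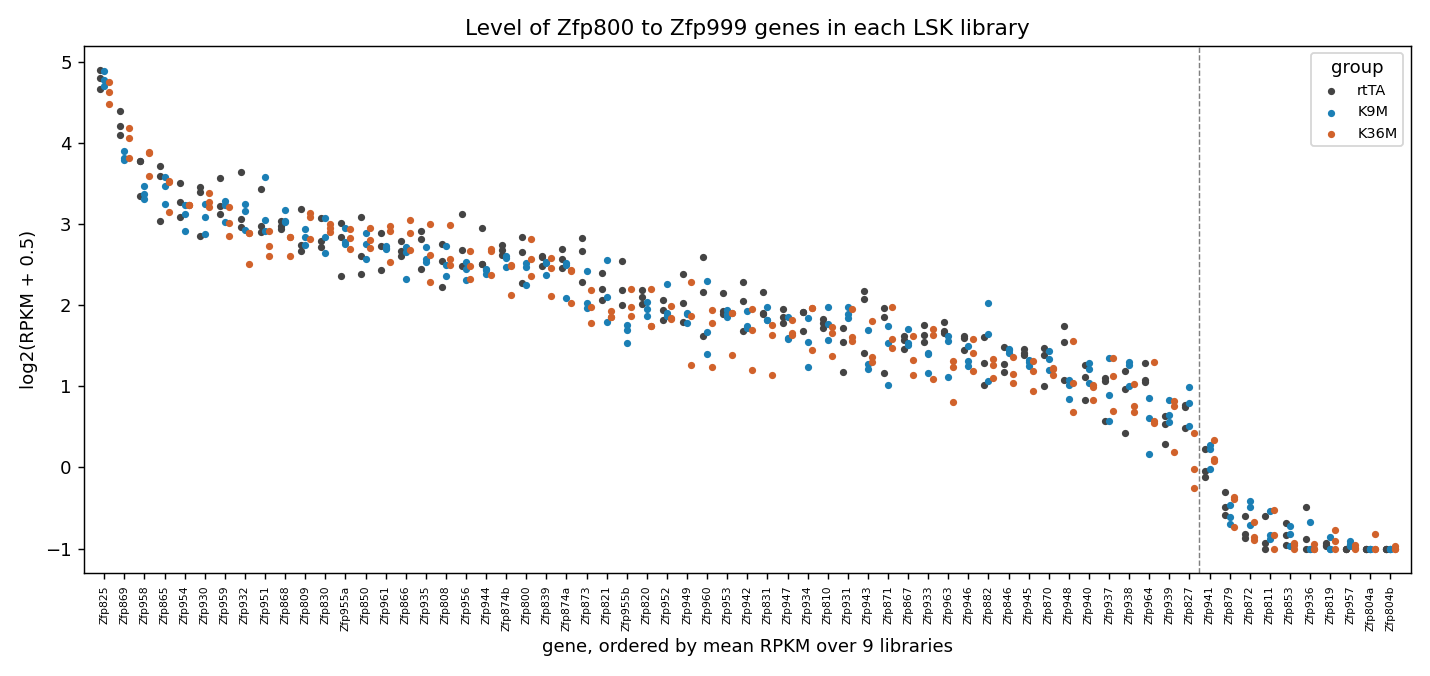
log2(RPKM + 0.5) of each of the 65 members (x axis, ordered by mean RPKM) in each of 9 libraries, with points for the 3 rtTA, 3 K9M and 3 K36M mice. Members right of the dashed line did not pass the filter; groups overlap for most members, and levels run from 26.1 RPKM on average for Zfp825 to 0.00112 for Zfp804b.

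The libraries differed in depth and in cell markers. Steps in the lowest RPKM values put the libraries at about 15860000 to 50320000 reads, and between 50.7% and 52.4% of low values came out as whole reads. H3f3a, a gene of histone H3.3, was 224 ± 32.3 RPKM in rtTA, 300 ± 17.5 in K9M and 460 ± 44.2 in K36M (SD, n = 3 each). Its K36M against rtTA difference was 1.04 on the log2 scale (SE 0.135, adjusted p = 0.0141 with limma), and that call ended without rtTA replicate 3 (0.0566), K36M replicate 1 (0.0742) or K36M replicate 3 (0.0703) and with only the 2 groups compared in the fit (0.0799). Kit, which encodes the cKit of the sort, was at 95.4 ± 7.17, 86.4 ± 5.45 and 66.2 ± 11.3 RPKM in the rtTA, K9M and K36M mice, and Ly6a, which encodes Sca1, at 179 ± 98.1, 152 ± 24.7 and 155 ± 36.4 (SD, n = 3 each), and neither was called.

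Markers of other cell types also moved between groups. All 13 granulocyte markers were detected in every group, with summed levels of 1367 to 7429 RPKM in rtTA (7428.5 in replicate 3), 1177 to 1533 in K9M and 1036 to 2957 in K36M. These sums join opposite estimates in K36M against rtTA: 9 markers were lower and 3 higher at an unadjusted p under 0.05, among them S100a8 (log2 difference -2.65) and Mpo (0.96), and only Ltf, a secondary granule protein, was called. Ltf fell by 4.01 on the log2 scale (adjusted p = 0.037 with limma), and Prtn3, a primary granule protease, rose by 2.02 in K36M against K9M (adjusted p = 0.0433). In K36M against K9M, 4 of the 13 granulocyte markers were above 0 and 9 below. Ltf was at 114 ± 137 RPKM in rtTA, an SD above the mean, 23.0 ± 9.68 in K9M and 4.02 ± 1.81 in K36M. Prtn3 was at 124 ± 16.4, 88.7 ± 37.3 and 377 ± 180 RPKM in turn (SD, n = 3 each). Summed B lineage markers were 46.1 to 63.8 RPKM in rtTA, 21.5 to 28.0 in K9M and 33.3 to 42.9 in K36M, T and NK markers 100.7 to 107.4, 135.5 to 147.2 and 113.6 to 157.2, and stem and progenitor markers 751 to 958, 773 to 912 and 658 to 695. Only 3 of the 10 T and NK genes passed the filter, with 3 above 0 in K9M and 2 in K36M against rtTA. Cd3e, which did not pass, averaged 0.126 RPKM in rtTA, 0.0143 in K9M and 0.124 in K36M. Erythroid markers summed to 86.7 to 154, 153 to 240 and 178 to 320 RPKM, of which the globin gene Hbb-bt made 12.2 ± 2.3, 23.2 ± 17.2 and 163 ± 54.7 (SD, n = 3 each). Hbb-bt rose in K36M against rtTA by 3.64 (adjusted p = 0.0267 with limma) and against K9M by 3.10 (adjusted p = 0.0336). Of the 8 tested erythroid markers, 6 were above 0 and 2 below in K36M against rtTA. Against K9M, 4 were above and 4 below, down to -1.323. Monocyte and dendritic markers summed to 74.6 to 130.9, 47.6 to 79.1 and 65.2 to 99.3 RPKM. In K36M against K9M, 4 of their 7 tested genes were above 0 and 3 below, down to -1.003. Ly86 among them rose by 1.95 in that comparison (adjusted p = 0.038 with limma). These 5 calls ended without K36M replicate 1 (adjusted p 0.119 to 0.149, limma) and without K36M replicate 3 (0.0787 to 0.16), and leaving out each other library ended at least 1 of them (0.0515 to 0.147). No marker of these lists was at 0 throughout a group. The part of these differences in the member values was not tested, and in bulk RNA fewer cells of a type and less RNA per cell cannot be told apart.

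No member passed the test in any comparison. The 3 comparisons were fitted with limma on log2(RPKM + 0.5) over all 12926 tested genes, and calls needed an adjusted p (Benjamini-Hochberg) under 0.05. Members called were 0 of 55 in K9M against rtTA, 0 of 55 in K36M against rtTA and 0 of 55 in K36M against K9M, beside 0.116%, 1.5% and 2.52% of all tested genes. The lowest adjusted p of a member was 0.470, 0.139 and 0.155 in turn (limma). At an unadjusted p under 0.05 stood 4 members in K9M against rtTA, 1 higher and 3 lower, beside 7.11% of all tested genes (4.0% higher, 3.11% lower). In K36M against rtTA there were 6, 0 higher and 6 lower, beside 19.1% (10.2% higher, 8.86% lower). In K36M against K9M there were 3, 1 higher and 2 lower, beside 18.8% (9.31% higher, 9.48% lower). Zfp827, which passed the filter through rtTA and K9M libraries only, is among the 6 and the 3. With a filter of a mean of at least 1 RPKM, which Zfp827 did not pass, they were 5 and 2. Both comparisons with rtTA use the same 3 control mice.

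The counts set beside the members rested on few libraries and on the settings of the fit. Over all tested genes, the 15 calls of K9M against rtTA rose in number to 36 when rtTA replicate 1 was left out. They numbered 8 when rtTA replicate 2, 6 when K9M replicate 2 and 9 when K36M replicate 3 was left out. The 194 of K36M against rtTA ranged from 10 without K36M replicate 1 to 402 without K36M replicate 2, moved by over 1.5 times whichever library was left out, and were 301 with the replicate block. The 326 of K36M against K9M were 31, 509 and 15 without K36M replicates 1, 2 and 3, 42, 80 and 39 without K9M replicates 1, 2 and 3, and 595 with the replicate block. Other settings moved the counts too. Library weights gave 62, 186 and 589 calls in the 3 comparisons, and no expression filter gave 4, 76 and 118. With only the 2 groups compared in the fit they were 13, 25 and 267. Members called stayed at 0 in each of these. The 6 members at an unadjusted p under 0.05 in K36M against rtTA became 2 without K36M replicate 1 or with only the 2 groups compared, 3 without rtTA replicate 2, and 9 without rtTA replicate 1 or K36M replicate 2. The 4 in K9M against rtTA became 7 without rtTA replicate 1 and 2 without rtTA replicate 2, K9M replicate 2 or K9M replicate 3. The 3 in K36M against K9M became 5 without rtTA replicate 2, and 2 without K9M replicate 2, K36M replicate 2 or K36M replicate 3. They were also 5 after quantile normalization, with the replicate block or with only the 2 groups compared.

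Differences of the members were small. Over 1.5-fold lay 1 of 55 members (1.8%) in K9M against rtTA, 3 (5.5%) in K36M against rtTA and 1 (1.8%) in K36M against K9M, beside 6.4%, 9.8% and 10.6% of all tested genes. Zfp827, which passed the filter through rtTA and K9M libraries only, is among the 3 and is the 1 in K36M against K9M. The 95% limits of a member's difference stayed within 2-fold either way for 51, 51 and 54 of 55 members. Exceptions were Zfp943, Zfp948, Zfp960 and Zfp964 in the first, Zfp827, Zfp873, Zfp960 and Zfp963 in the next, and Zfp827 in the last. The spread between mice of a group had a median SD of 0.215 (log2 scale) over members and 0.231 over the 2960 genes of similar level.

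Estimates below 0 against rtTA were common among members, as among other Zfp genes. The median log2 difference was -0.12 in K9M against rtTA and -0.17 in K36M against rtTA, beside 0.01 and 0.02 over all tested genes and -0.09 and -0.10 over the other Zfp genes. Below 0 were 37 of 55 members (67.3%) and 42 of 55 (76.4%), beside 48.7% and 47.7% of all genes and 69.4% and 66.4% of the other Zfp genes. For 31 members the estimate was below 0 in both, against the same 3 controls. K36M against K9M gave a median of -0.06 with 31 of 55 below 0 (56.4%), beside 0.01 and 48.9% over all genes. KRAB members had medians of -0.13, -0.17 and -0.05 in the 3 comparisons, and the 8 tested members without the pattern -0.08, -0.22 and -0.06.

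Single libraries moved with these medians. The rtTA replicate 2 library gave the highest value of 21 of 55 members (38.2%, beside 16.5% of all genes), and K36M replicate 1 the lowest of 21 (38.2%, beside 16.7%). Relative to each gene's mean, the members' median was -0.03, 0.19 and 0.12 (log2) in rtTA replicates 1 to 3, -0.04, -0.01 and -0.02 in K9M, and -0.23, 0.02 and -0.04 in K36M. Without rtTA replicate 2 the median of K9M against rtTA was -0.06 and that of K36M against rtTA -0.11. Without K36M replicate 1 the median of K36M against rtTA was -0.09, and that of K36M against K9M was 0.03 with 24 of 55 members below 0. After quantile normalization 35 of 55 members lay below 0 in K36M against rtTA, with a median of -0.07. Summed RPKM over the 65 members was 260.6, 318.6 and 296.0 in rtTA, 263.9, 266.3 and 269.2 in K9M, and 236.0, 276.0 and 278.0 in K36M. Group means of that sum, 291.7 ± 29.2, 266.5 ± 2.65 and 263.3 ± 23.7 RPKM (SD, n = 3 each), belong to groups that overlap. The other Zfp genes summed to 1800, 2092 and 2096 RPKM in rtTA, 1741, 1765 and 1749 in K9M, and 1601, 1786 and 1804 in K36M. There too K36M replicate 1 was the lowest library and rtTA replicates 2 and 3 the highest. Every K9M sum of these genes lay below every rtTA sum, and K36M overlapped both.

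**Figure D3:**
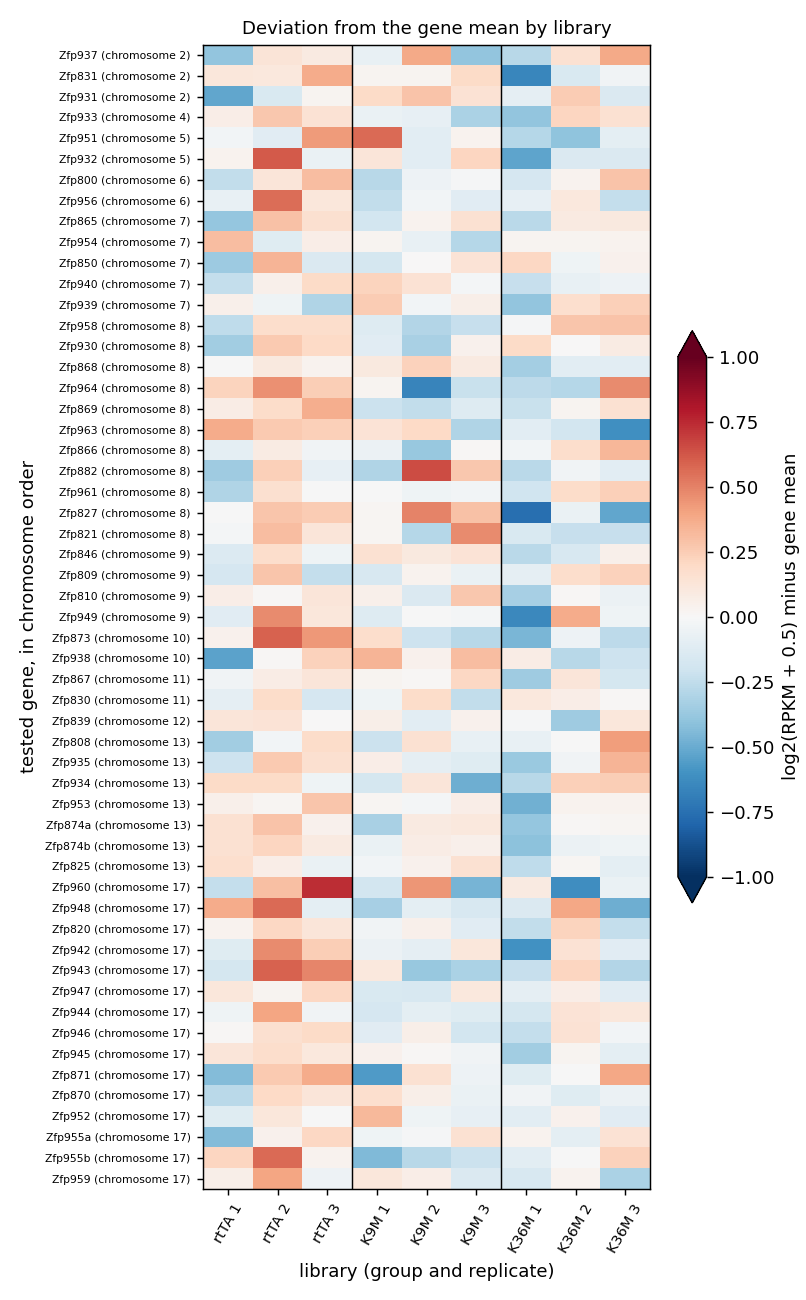
Deviation of log2(RPKM + 0.5) from the gene's mean over 9 libraries (colour) for the 55 tested members (rows, in chromosome order) in each library (columns). Red is above and blue below the mean; the rtTA replicate 2 column is mostly red (median 0.19) and the K36M replicate 1 column mostly blue (median -0.23).

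In K9M against rtTA, groups did not overlap for 1 tested member that was higher and 8 that were lower (Zfp869, Zfp874b, Zfp933, Zfp944, Zfp945, Zfp955b, Zfp963 and Zfp964), 16.4% of the 55 beside 12.5% of all tested genes (7.09% higher, 5.43% lower). The smallest p belonged to Zfp955b (ENSMUSG00000096910, chr17:33289544-33307241), at 4.05, 5.31 and 3.52 RPKM in the rtTA mice, 2.39, 2.75 and 2.89 in the K9M mice and 3.15, 3.43 and 4.1 in the K36M mice. Its K9M values were the lowest, below every rtTA and K36M value. The difference was -0.58 (SE 0.170, 95% limits -0.96 to -0.2, adjusted p = 0.47) with limma in K9M against rtTA and 0.35 (SE 0.170, 95% limits -0.03 to 0.73, adjusted p = 0.309) in K36M against K9M. Near-identical sequence in other genes covered 64.5% of the Zfp955b transcript, with Zfp955a covering 3559 of its 5788 bases. In turn, Zfp955b covered 100% of Zfp955a. Zfp955a itself measured 4.64, 6.67 and 7.53 RPKM in the rtTA mice, 6.26, 6.38 and 7.24 in the K9M mice and 6.61, 5.98 and 7.17 in the K36M mice. Summed over the pair, levels were 8.69, 12 and 11.1 RPKM in rtTA, 8.65, 9.13 and 10.1 in K9M and 9.76, 9.4 and 11.3 in K36M, and the groups overlapped. The split between them is uncertain, since the sources used here do not say how reads matching both genes were shared.

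Zfp869 (ENSMUSG00000054648, chr8:69706332-69710724), whose values are given above, followed with -0.40 (SE 0.122, 95% limits -0.68 to -0.13, adjusted p = 0.487) by limma. Its K36M values overlapped both other groups. Zfp931 (ENSMUSG00000078861, chr2:178067695-178078476) was the single tested member whose K9M values all lay above the controls, at 1.76, 2.42 and 2.8 RPKM in the rtTA mice, 3.2, 3.45 and 3.08 in the K9M mice and 2.54, 3.37 and 2.44 in the K36M mice. That difference was 0.42 (SE 0.181, 95% limits 0.01 to 0.83, adjusted p = 0.699) with limma.

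Zfp964 (ENSMUSG00000091764, chr8:69654479-69666982) measured 1.58, 1.94 and 1.61 RPKM in the rtTA mice, 1.31, 0.626 and 1.02 in the K9M mice and 0.982, 0.957 and 1.96 in the K36M mice. The K9M values were below the controls, and K36M replicate 3 was level with them. Its K9M difference was -0.59 (SE 0.270, 95% limits -1.2 to 0.02, adjusted p = 0.703) with limma. Zfp943 (ENSMUSG00000053347, chr17:21962552-22071168), which overlaps 6 other annotated genes, measured 2.17, 4.02 and 3.73 RPKM in the rtTA mice, 2.74, 1.82 and 1.91 in the K9M mice and 2.07, 2.98 and 1.96 in the K36M mice. Its groups overlapped through rtTA replicate 1, and its K9M difference was -0.50 (SE 0.247, 95% limits -1.06 to 0.06, adjusted p = 0.733) with limma.

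In K36M against rtTA, 10 tested members lay wholly lower (Zfp821, Zfp827, Zfp831, Zfp868, Zfp873, Zfp874a, Zfp874b, Zfp932, Zfp945 and Zfp963) and none wholly higher, 18.2% of the 55 beside 22.3% of all tested genes. Over all tested genes 10.6% lay wholly lower and 11.6% wholly higher. Zfp873 (ENSMUSG00000061371, chr10:82048123-82064745), a KRAB gene with 16 fingers, measured 4.36, 6.61 and 5.88 RPKM in the rtTA mice, 4.84, 3.57 and 3.39 in the K9M mice and 2.93, 4.05 and 3.44 in the K36M mice. Every K36M value was below every rtTA value, and the K9M values overlapped both groups. Its difference was -0.61 (SE 0.192, 95% limits -1.05 to -0.18, adjusted p = 0.139) with limma in K36M, the smallest p of any member in that comparison, and -0.46 (SE 0.192, 95% limits -0.89 to -0.03, adjusted p = 0.688) in K9M.

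Zfp963 (ENSMUSG00000092260, chr8:69741639-69749970) measured 2.96, 2.7 and 2.65 RPKM in the rtTA mice, 2.44, 2.56 and 1.66 in the K9M mice and 1.98, 1.86 and 1.25 in the K36M mice. All 6 values of the mutant mice were below the 3 control values, and the K36M difference was -0.59 (SE 0.198, 95% limits -1.04 to -0.14, adjusted p = 0.158) with limma. Its locus overlaps Gm20422 in the annotation, and whether reads were counted by strand is not given in the sources used here. Zfp831 (ENSMUSG00000050600, chr2:174643534-174710832), which has no KRAB pattern, measured 3.24, 3.21 and 3.96 RPKM in the rtTA mice, 3.02, 3.01 and 3.45 in the K9M mice and 1.7, 2.61 and 2.87 in the K36M mice. Only K36M stood apart from rtTA, by -0.48 (SE 0.183, 95% limits -0.89 to -0.06, adjusted p = 0.21) with limma.

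Zfp827 (ENSMUSG00000071064, chr8:79028437-79193766), known as a telomere-bound partner of the NuRD complex, was low in all K36M mice, as given above. No K36M value reached the lowest value of either other group. Zfp827 passed the filter only through 4 libraries of the groups where it was higher, so its K36M differences are not independent of the filter. It is counted in the lists of members without overlap in both K36M comparisons. The difference was -0.62 (SE 0.251, 95% limits -1.19 to -0.05, adjusted p = 0.228) against rtTA and -0.71 (SE 0.251, 95% limits -1.28 to -0.15, adjusted p = 0.167) against K9M, with limma. It was the largest estimate of any member in K36M against K9M, from about 122 to 407 reads per library.

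Zfp874b (ENSMUSG00000059839, chr13:67471513-67484258) measured 5.92, 6.2 and 5.64 RPKM in the rtTA mice, 5.03, 5.59 and 5.5 in the K9M mice and 3.86, 5.07 and 5.12 in the K36M mice. Both mutant groups lay below the controls, and K36M replicate 1 was the lowest. Its K36M difference was -0.32 (SE 0.129, 95% limits -0.61 to -0.03, adjusted p = 0.228) with limma. Zfp932 (ENSMUSG00000066613, chr5:109996521-110010411), known to bind and repress ERVK retroelements, measured 7.86, 12 and 7.3 RPKM in the rtTA mice, 8.4, 7.1 and 8.97 in the K9M mice and 5.18, 6.9 and 6.88 in the K36M mice. All K36M values were below all other values, and rtTA replicate 2 stood above the rest. The K36M difference was -0.46 (SE 0.195, 95% limits -0.9 to -0.02, adjusted p = 0.242) with limma.

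In K36M against K9M, groups did not overlap for 2 tested members that were higher (Zfp955b and Zfp958) and 6 that were lower (Zfp827, Zfp831, Zfp846, Zfp868, Zfp932 and Zfp940), 14.5% of the 55 beside 27.9% of all tested genes (14.5% higher, 13.4% lower). Zfp868 (ENSMUSG00000060427, chr8:69610857-69625548) measured 7.15, 7.73 and 7.39 RPKM in the rtTA mice, 7.7, 8.52 and 7.65 in the K9M mice and 5.58, 6.64 and 6.65 in the K36M mice. K36M was the lowest group without overlap, and the difference from K9M was -0.32 (SE 0.108, 95% limits -0.56 to -0.08, adjusted p = 0.155) with limma. Zfp958 (ENSMUSG00000058748, chr8:4613167-4630231) went the other way, by 0.40 (SE 0.143, 95% limits 0.08 to 0.72, adjusted p = 0.171) with limma, from the values given above.

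Zfp951 (ENSMUSG00000072774, chr5:104813169-104860070) measured 7.4, 6.95 and 10.3 RPKM in the rtTA mice, 11.5, 7.02 and 7.78 in the K9M mice and 6.11, 5.61 and 7.05 in the K36M mice. The K36M and K9M values met at about 7 RPKM, and the difference was -0.43 (SE 0.204, 95% limits -0.89 to 0.03, adjusted p = 0.301) with limma. Zfp866 (ENSMUSG00000043090, chr8:69761326-69791178) measured 5.61, 6.42 and 5.87 RPKM in the rtTA mice, 5.78, 4.52 and 6.08 in the K9M mice and 5.91, 6.89 and 7.75 in the K36M mice. K9M replicate 2 was the lowest of its values, and the K36M against K9M difference was 0.30 (SE 0.144, 95% limits -0.02 to 0.63, adjusted p = 0.301) with limma.

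**Figure D4:**
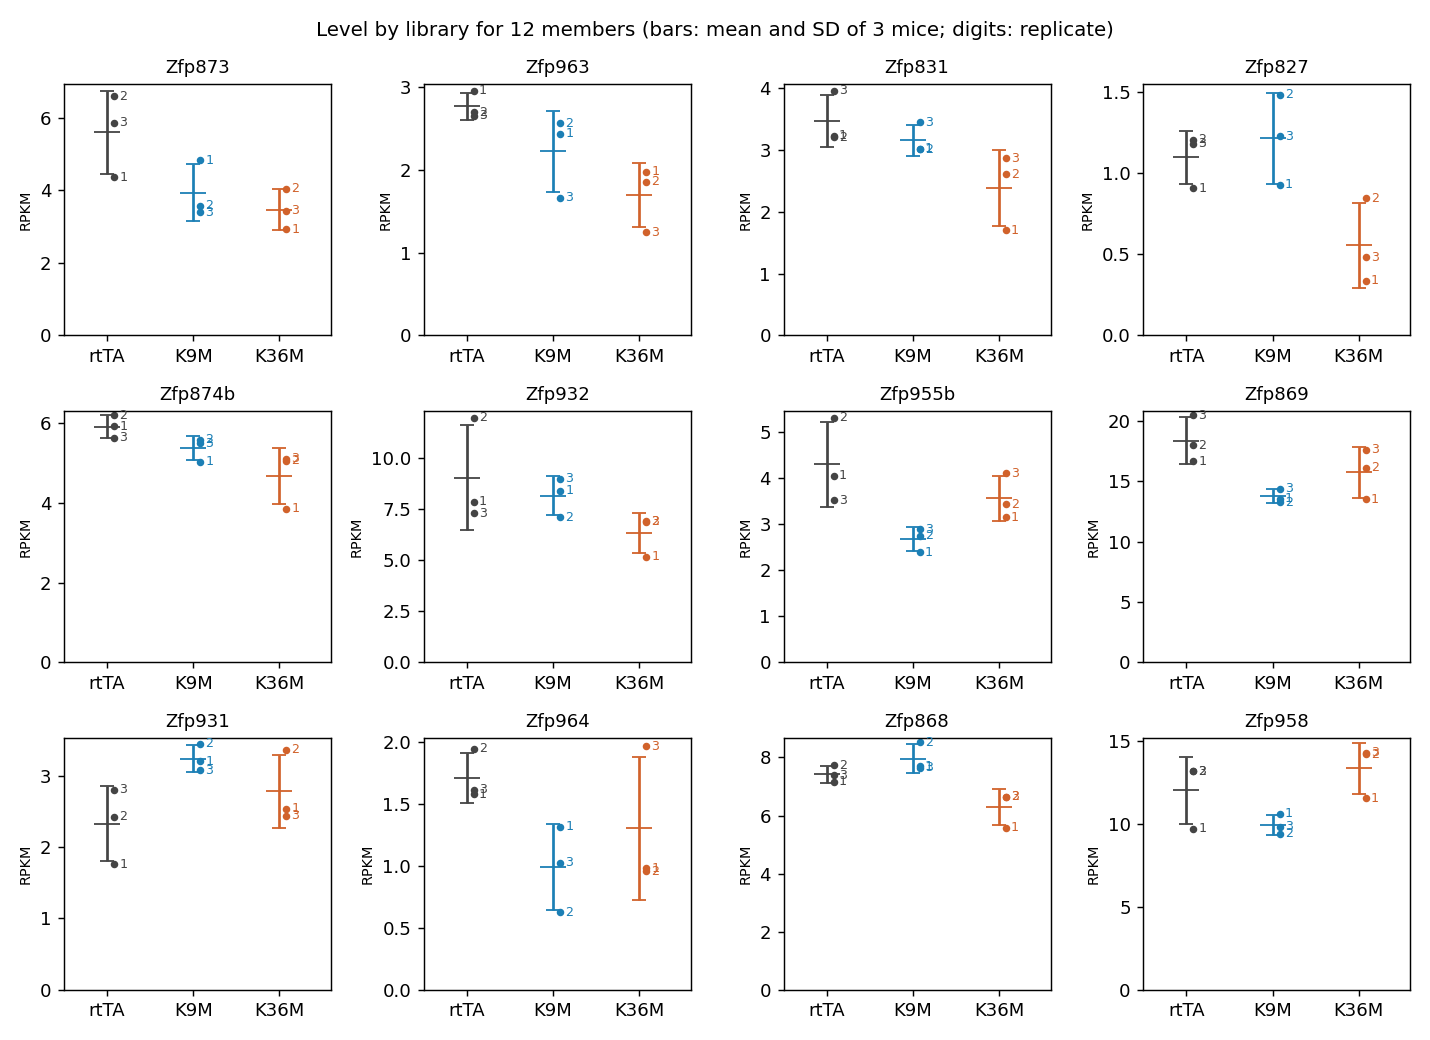
RPKM (y axis, linear, from 0) of 12 members in the 3 rtTA, 3 K9M and 3 K36M mice; each point is a mouse marked with its replicate digit, and bars give the mean and SD. K36M points lie below both other groups for Zfp827, Zfp868, Zfp831 and Zfp932, and K9M points lie lowest for Zfp955b.

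Of the members known for retroelement control, Zfp809, which brings TRIM28 to the primer binding site of murine leukaemia viruses, was expressed in every library (ENSMUSG00000057982, chr9:22225714-22243354). It measured 6.16, 8.58 and 5.85 RPKM in the rtTA mice, 6.21, 7.16 and 6.63 in the K9M mice and 6.52, 7.96 and 8.28 in the K36M mice. All groups overlapped, with a K9M difference of -0.02 (SE 0.158, 95% limits -0.38 to 0.33, adjusted p = 0.984) and a K36M difference of 0.15 (SE 0.158, 95% limits -0.21 to 0.5, adjusted p = 0.665) with limma. Zfp819, linked to retroelement silencing in pluripotent cells, was at 0.0242, 0.0119 and 0.0161 RPKM in the rtTA mice, 0, 0 and 0.0507 in the K9M mice and 0, 0.0872 and 0.0319 in the K36M mice, at most about 8 reads in a library. At this depth no difference between groups could be detected for it.

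**Figure D5:**
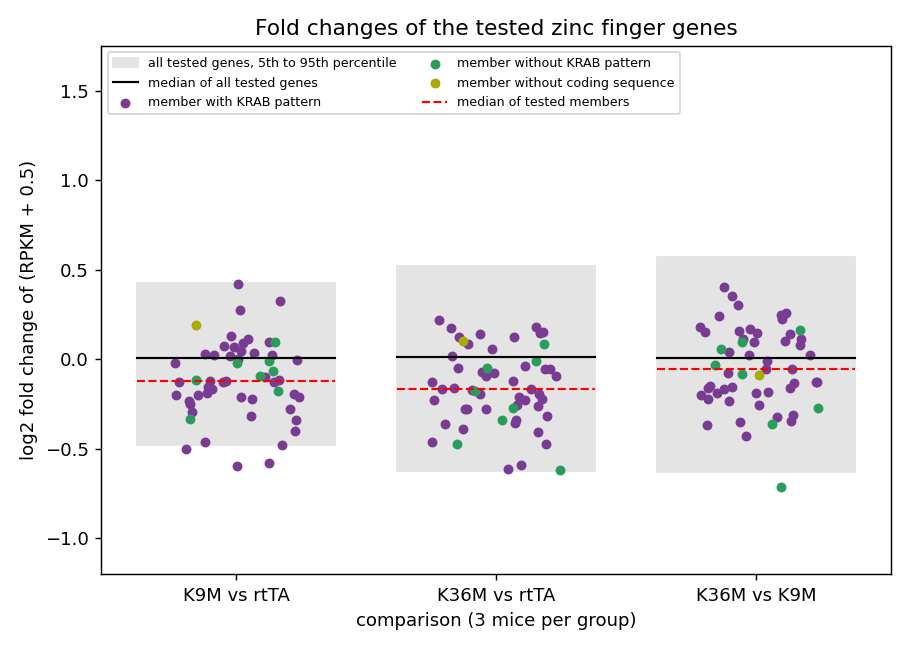
log2 difference of (RPKM + 0.5) for each of the 55 tested members (points) in the 3 comparisons; solid lines give the median of all 12926 tested genes, dashed lines the members' median, and grey the 5th to 95th percentile of all tested genes. Members sit mostly inside the grey range, with medians of -0.12, -0.17 and -0.06.

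Genes of a cluster were read together. In the chromosome 17 cluster from 21567008 to 22867134 on mm10, all 8 members (Zfp820, Zfp942, Zfp943, Zfp944, Zfp945, Zfp946, Zfp947 and Zfp948) had estimates below 0 in K9M and in K36M against the shared rtTA controls. Medians there were -0.21 and -0.24, and 0 of 8 were called in either comparison, beside 0.116% and 1.5% of all tested genes. Of all tested members 67.3% and 76.4% were below 0 in the 2 comparisons, beside 48.7% and 47.7% of all tested genes. Without rtTA replicate 2, or without K36M replicate 1, 7 of 8 were below 0 in K36M. In K36M against K9M 3 of 8 were below 0, with a median of 0.03. Without K36M replicate 1 that was 1 of 8 with a median of 0.09, and without K36M replicate 2 it was 7 of 8 with a median of -0.09. Without K9M replicates 1, 2 or 3 it was 4 of 8, and without K36M replicate 3 it was 2 of 8. The chromosome 8 cluster of 6 (Zfp930, Zfp868, Zfp964, Zfp869, Zfp963 and Zfp866), from 69209038 to 69791178, had medians of -0.22, -0.22 and 0.20. Other clusters differed. The Zfp955a cluster, also on chromosome 17 with 5 of 6 members tested, had medians of 0.036, -0.055 and -0.009. Below 0 there were 2 of 5 in K9M and 3 of 5 in K36M against rtTA. Medians against rtTA were above 0 in the Zfp961 cluster (0.15 and 0.028). They were below 0 in the smaller clusters of Zfp873, Zfp935, Zfp874b and Zfp809. Reads of near-identical copies cannot be assigned with certainty: 17 members had at least 98% identity over at least 100 bases with another gene, and 28 overlapped another annotated gene. Apart from the Zfp955 pair, only Zfp960, 99.6% covered by Zfp97, had copies over most of its transcript.

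Of the partners of the KRAB box, Trim28, the KRAB corepressor, averaged 164 ± 14.8 RPKM in rtTA, 170 ± 10.6 in K9M and 177 ± 8.54 in K36M (SD, n = 3 each), and it was not called. Setdb1, its methyltransferase partner, averaged 11.2 ± 3.32, 9.86 ± 0.953 and 11.2 ± 0.67 RPKM and was not called either. Of 31 tested genes of the corepressor and heterochromatin list, calls numbered 0, 0 and 1 in the 3 comparisons with limma, beside 0.116%, 1.5% and 2.52% of all tested genes. At an unadjusted p under 0.05 stood 3, 8 and 6 (9.68%, 25.81% and 19.35%), beside 7.11%, 19.1% and 18.8% of all tested genes. Higher were 1, 8 and 6 of them, beside 4.0%, 10.2% and 9.31% of all tested genes. Lower were 2, 0 and 0, beside 3.11%, 8.86% and 9.48%. Medians were 0.10, 0.12 and 0.18 beside 0.01, 0.02 and 0.01 for all genes. Hdac1, a histone deacetylase, was the called gene, at 31.2 ± 7.06 RPKM in K9M and 56.7 ± 2.36 in K36M (log2 difference 0.88, SE 0.188, adjusted p = 0.0478 with limma). That call held in 7 of 19 alternative analyses, with adjusted p of 0.042 to 0.161 (limma). It ended without rtTA replicate 2 (0.0605), without any K9M mouse (0.102 to 0.111) and without any K36M mouse (0.0649 to 0.161). Of 11 tested H3K9 methyltransferase genes and 7 tested H3K36 methyltransferase genes, 0 were called in any comparison with limma, while 0, 1 and 1 of each list had an unadjusted p under 0.05.

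Among the 235 other Zfp genes tested, 0 were called in K9M against rtTA with limma, beside 0.116% of all tested genes. At an unadjusted p under 0.05 stood 16 (6.81%) in K9M and 36 (15.32%) in K36M against rtTA, and 37 (15.74%) in K36M against K9M. All tested genes had 7.11%, 19.1% and 18.8%. In K36M against rtTA, 4 fell: Zfp36, an mRNA decay factor outside the C2H2 class, Zfp219, Zfp395 and Zfp428. In K36M against K9M, Zfp219, Zfp395 and Zfp428 fell and Zfp385a rose. Each comparison with K36M thus had 4 calls of 235, beside 1.5% and 2.52% of all tested genes. None of the 92 tested other Zfp genes with a KRAB pattern was called in any comparison with limma. Of them 8, 10 and 12 (8.7%, 10.87% and 13.04%) had an unadjusted p under 0.05. Leaving out mice ended many of these calls: without K36M replicate 1 all 4 ended in K36M against rtTA, and without any single K9M mouse, K36M replicate 1 or K36M replicate 3 all 4 ended in K36M against K9M. Leaving out any other mouse ended at least 1 call as well, except rtTA replicate 1 in K36M against K9M. Adjusted p over the alternatives reached 0.0594 for Zfp36, 0.0913 for Zfp219, 0.165 for Zfp395 and 0.165 for Zfp428 in K36M against rtTA (limma). In K36M against K9M it reached 0.172 for Zfp219, 0.126 for Zfp385a and Zfp395, and 0.0866 for Zfp428 (limma).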

How the data were processed

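RNA sequencing of LSK cells from 9 mice was deposited as a table of RPKM values, made by the authors with CASAVA 1.7, STAR and mm10 per the submitters' processing notes. How reads with several matches or of either strand were counted is not given in the sources used here. PolyA RNA is named in the labels beside a kit for total RNA. Groups came from the sample titles, and the series' design text makes every replicate its own mouse. The members and lists were chosen with earlier results of these data known.

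Values were analysed as log2(RPKM + 0.5), which understates changes of low genes, where at least 3 libraries reached 1 RPKM. limma 3.58.1 in R 4.3.3 fitted 3 group means over the 9 libraries (eBayes, mean-variance trend), with 6 residual and 3.14 prior degrees of freedom, and was tested on simulated data. Tests were two-sided. Named members were, in each comparison, the 6 with the smallest p, the 6 highest, the 2 lowest tested and 2 highest untested, and Zfp809, Zfp819 and Zfp932; genes of other lists were named where called, and Trim28, Setdb1, S100a8, Mpo, Zfp955a and Zfp811 were added after values were seen. Coordinates are from GENCODE M21 on mm10, which matched all 65 members by identifier. Copies were found with blastn 2.17.0 and fingers and KRAB patterns from translated M21 transcripts, the latter in the first 250 residues. Depth was read from values worth up to 20 reads, with a tolerance of 0.02 read; 1 read of a 1 kb gene was worth 0.0199 to 0.063 RPKM. No pair of libraries was identical.

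Same-numbered rtTA and K36M libraries deviated together (r of 0.414, 0.369 and 0.377 over genes), a pairing read from the data and not stated by the labels. For K9M against rtTA these were 0.162, 0.06 and 0.017, and for K36M against K9M 0.074, -0.171 and 0.053. Alternatives were 10 other settings and leaving out each of 9 libraries.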

Additional observations from a re-analysis of the deposited data

How the results depend on the processing

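Under all 19 alternatives, members called stayed at 0 in each comparison. The lowest adjusted p of a member ranged from 0.139 to 0.811 in K9M against rtTA, 0.0845 to 0.303 in K36M against rtTA and 0.0708 to 0.31 in K36M against K9M (limma). The 18 differences of named members gave 340 values under the alternatives, all in the same direction and uncalled; Zfp827 had none under the filter on mean RPKM, which left 54 members. The members' median log2 difference moved by more than the SD between libraries of a group (0.101, pooled over groups) under quantile normalization of K36M against rtTA, to -0.065 from -0.168; the cause was not tested. Leaving out each library in turn gave medians of -0.155 to -0.056, -0.234 to -0.086 and -0.102 to 0.026 in the 3 comparisons, and the last reached above 0 without K36M replicate 1. The replicate block gave 0 members called and medians of -0.119, -0.168 and -0.055; with it 5, 9 and 5 members had an unadjusted p under 0.05, and it changed no other call of a member. Depth limits the members under 1 RPKM, where 7 were at 0 in some libraries.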
